A study of Mus musculus with 12 samples.

Results

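The genes described here are the variable segments of the immunoglobulin kappa light chain, that is, every gene whose name starts with Igkv. The 12 tables of expression values held 120 such names among 31272 gene names, and membership rested on the name alone, not on any measured value. All 120 names matched GENCODE M21 (GRCm38), which lists 100 of them as V genes and 20 as pseudogenes, spread over chr6:67555497-70704177. The first number of each name gives the V family, and 20 families were present. The RNA came from the bone marrow of wild-type mice, from a sort meant to hold hematopoietic stem cells (HSCs). The 4 groups of 3 libraries were Ctrl, IR (ionizing radiation), Ab_IR and L_IR, and the irradiated cells were collected at day 3. What Ab and L stand for is not spelled out, so both are used as written, and the labels name no allele or transgene in any group. Nothing states that the 3 libraries of a group came from separate mice, so p-values measure only the spread between these libraries, which may be technical.

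An antibody light chain of the kappa type is encoded by a V segment, a short J segment and the single constant gene Igkc. In the germline the V segments lie in a long array upstream of the J segments. During B cell development in the marrow, the RAG recombinase joins 1 V to 1 J segment in each cell, by deletion where the V segment points the same way as the J segments and by inversion where it points the other way. Each B cell clone thereby uses its own V segment, and plasma cells, the antibody-secreting end stage of the lineage, hold very large amounts of the joined transcript. The profile of V segments in a pool of cells, termed usage, is a common readout of which B lineage clones contribute the transcripts. HSCs lie upstream of this process and are not known for rearranged kappa genes.

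The sorted cells were first checked against markers. The gate described in the study's methods took lineage-negative cells with Sca-1 and c-Kit but without Flt3 and CD34, and its lineage antibodies included B220, a B cell antigen. Kit, the gene of c-Kit, was at 6.70 to 25.4 FPKM over the 12 libraries, and Ly6a, the gene of Sca-1, at 25.9 to 61.5 FPKM. Cd34 and Flt3, whose products the gate excludes, were at 3.66 to 20.6 and 0.96 to 12.1 FPKM, lowest in IR. Of the other genes in the HSC list Gata2 was at 4.89 to 17.2 FPKM, whereas Procr did not exceed 1.26 FPKM, Fgd5 0.22 FPKM and Hoxb5 0.07 FPKM. Kit and Gata2, like Cd34 and Flt3, were lower in IR than in each other group by the test used below. Mpo and Elane, granule enzymes of myeloid progenitors, were at 2859 to 3432 and 1955 to 2714 FPKM. Immunoglobulin genes made up 9.0% to 22.6% of all FPKM. In Ctrl replicate 1, 44.1% of gene rows had a value of 0, whereas the other libraries had 24.7% to 27.3%. Nppa, a heart hormone gene, stood at 51.2 to 63.9 FPKM in every IR library and in Ctrl replicates 2 and 3, and at 0 to 0.26 FPKM in the other 7. Counts of called members and family distances against Ctrl are therefore also given without Ctrl replicate 1, as are values of named kappa V genes that moved by over 1.5 times or lost their call without it. This split cannot be told apart from the group where Ab_IR or L_IR is compared with IR or with Ctrl replicates 2 and 3 alone. Because FPKM values without counts were deposited, depth is unknown. In bulk RNA fewer cells of a type and less RNA per cell cannot be told apart.

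To show what the names stand for, the last 60 bases of the V exon are printed for the 10 genes with the highest mean over the 12 libraries, 5′ to 3′ on the coding strand. They come from the GENCODE M21 transcripts (GRCm38), lie in the last exon and are coding sequence. Capitals mark the last cysteine codon in frame, the conserved cysteine after which the third hypervariable loop begins, and 23 bases of germline sequence follow it in each of these genes.
Igkv10-96 (chr6:68631963-68632022, minus strand): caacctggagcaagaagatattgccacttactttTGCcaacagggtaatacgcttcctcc
Igkv17-127 (chr6:67861600-67861659, plus strand): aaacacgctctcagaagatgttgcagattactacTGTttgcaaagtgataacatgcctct
Igkv12-44 (chr6:69814631-69814690, minus strand): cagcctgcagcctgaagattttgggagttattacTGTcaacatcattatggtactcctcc
Igkv6-20 (chr6:70335841-70335900, minus strand): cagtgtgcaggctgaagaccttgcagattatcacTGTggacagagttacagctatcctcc
Igkv5-45 (chr6:69775750-69775809, minus strand): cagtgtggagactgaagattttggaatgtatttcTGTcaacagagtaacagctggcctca
Igkv12-46 (chr6:69764523-69764582, minus strand): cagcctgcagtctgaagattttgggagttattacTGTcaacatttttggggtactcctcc
Igkv1-110 (chr6:68271208-68271267, plus strand): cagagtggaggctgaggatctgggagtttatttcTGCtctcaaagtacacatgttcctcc
Igkv1-117 (chr6:68121768-68121827, plus strand): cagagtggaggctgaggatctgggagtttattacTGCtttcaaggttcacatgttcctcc
Igkv9-124 (chr6:67942074-67942133, minus strand): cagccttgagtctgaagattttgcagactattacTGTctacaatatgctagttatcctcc
Igkv6-32 (chr6:70074024-70074083, minus strand): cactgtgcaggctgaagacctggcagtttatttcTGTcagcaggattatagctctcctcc
Over the whole V exon, members of a family were 88.3% identical at the median of 532 pairs, and members of different families 64.2% at the median of 4418 pairs. For 22 of the 120 genes another kappa V gene was at least 97% identical, so reads may have been split or shared between such copies by the authors' quantification.

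Summed over all 120 genes, kappa V transcripts were least abundant in Ctrl and most abundant in L_IR. The sum was 5036, 6050 and 5826 FPKM in Ctrl replicates 1 to 3, and 11725, 11890 and 12052 FPKM in IR. It was 9594, 9735 and 9932 FPKM in Ab_IR and 16066, 16208 and 16434 FPKM in L_IR. No group overlapped another, in the order Ctrl, Ab_IR, IR and L_IR. The log2 ratio of the group means was 1.08 ± 0.08 (SE, n = 3 in each group) for IR to Ctrl, or 1.0 without Ctrl replicate 1. It was -0.29 ± 0.02 for Ab_IR to IR and 0.45 ± 0.02 for L_IR to IR. As a sum over the members it was given no test.

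Igkc, the constant gene that every kappa transcript shares, followed a different order. Its level was 12526, 9789 and 9409 FPKM in Ctrl, 17658, 16423 and 16623 FPKM in IR, 17305, 17008 and 16760 FPKM in Ab_IR, and 24121, 24333 and 24973 FPKM in L_IR. Ab_IR and IR overlapped here, with a log2 fold change of 0.01 ± 0.05 (SE) and an adjusted p of 0.852, although their V sums did not overlap. Igkc passed both thresholds, an adjusted p under 0.05 and a change of more than 1 on the log2 scale, in L_IR against Ctrl, with a log2 fold change of 1.22 ± 0.16 (adjusted p = 0.006), and this call was lost when no filter on low values was applied (adjusted p = 0.668). It passed the adjusted p but stayed under the fold threshold in IR against Ctrl (0.69 ± 0.16, adjusted p = 0.013) and in L_IR against IR (0.53 ± 0.04, adjusted p = 4.3e-05), and the differences between comparisons were not tested. The V sum divided by Igkc was 0.402 in Ctrl replicate 1 and 0.618 to 0.619 in Ctrl replicates 2 and 3. It was 0.664 to 0.725 in IR, 0.554 to 0.593 in Ab_IR and 0.658 to 0.666 in L_IR. Per unit of constant gene, Ab_IR thus held less V transcript than IR and L_IR in all libraries.

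**Figure D1:**
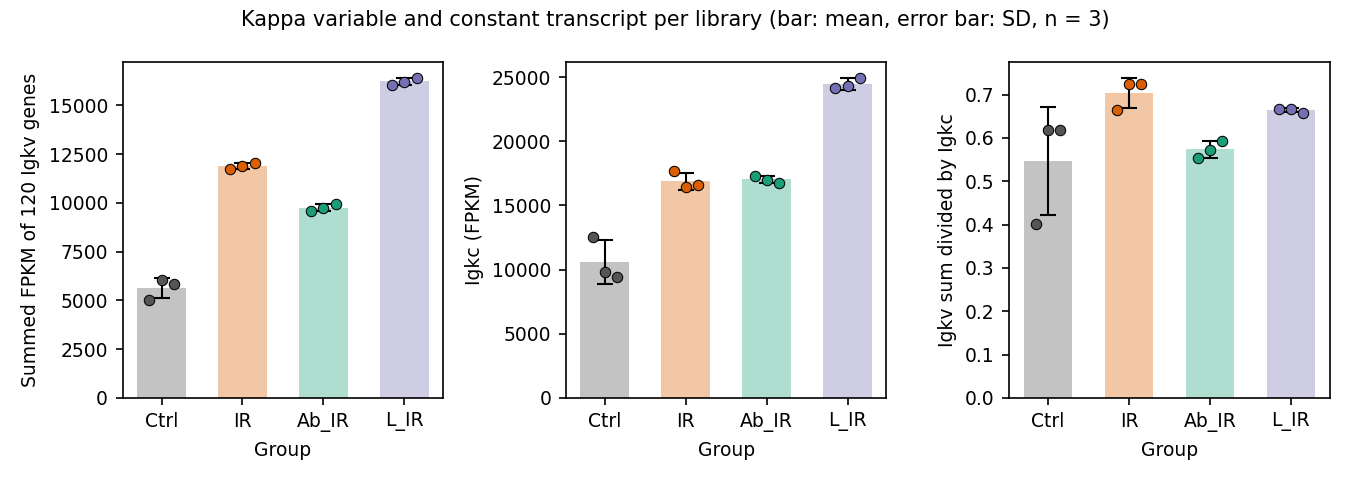
Summed kappa V transcript, Igkc and their ratio, in FPKM or as a plain ratio, for each library (points) with the group mean (bar) and SD (error bar, n = 3). The V sum parts all 4 groups, whereas Igkc is alike in IR and Ab_IR, and Ctrl replicate 1 has the lowest ratio at 0.402.

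The transcript was spread over many genes in each library. Between 90 and 107 members reached 1 FPKM in a library, 88 averaged 10 FPKM or more over all libraries and 34 averaged 100 FPKM or more. Another 10 members stayed under 1 FPKM throughout, 8 of them pseudogenes, and pseudogenes together held 0.353% to 1.35% of the V sum. The 10 genes with the most transcript in a library held 38.8% to 43.0% of its V sum. The effective number of genes, the exponent of the Shannon entropy of the shares, was 54.2 to 58.3 in every library. By this measure no library was dominated by a single V gene.

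Igkv10-96 was the most abundant member in all 4 groups, at 428, 521 and 484 FPKM in Ctrl and 1030.1, 1032 and 1072 FPKM in IR. It was at 624, 628 and 672 FPKM in Ab_IR and 1099, 1142 and 1178 FPKM in L_IR. Its share of the V sum was 8.30% to 8.90% in Ctrl and IR and 6.45% to 7.17% in Ab_IR and L_IR. Igkv17-127 was the next by the mean over all libraries, at 186, 225 and 215 FPKM in Ctrl and 798, 818 and 822 FPKM in IR. It was at 576, 538 and 559 FPKM in Ab_IR and 868, 916 and 900.3 FPKM in L_IR. The share of Igkv17-127 was thus 3.70% ± 0.02 (SD, n = 3) in Ctrl against 6.83% ± 0.04 in IR, and it was 5.72% ± 0.25 in Ab_IR against 5.51% ± 0.13 in L_IR. Igkv12-44, Igkv6-20, Igkv5-45 and Igkv12-46 each held 2.47% to 5.07% of the V sum in all libraries. Igkv9-124 went from 4.05% ± 0.21 of the V sum in Ctrl to 2.42% ± 0.10 in IR, 2.63% ± 0.08 in Ab_IR and 2.29% ± 0.09 in L_IR.

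Usage was next compared by V family. Igkv4, the largest family with 32 members, held 12.5% to 13.5% of the V sum in all 12 libraries, and its 4 groups overlapped. Igkv1 held 6.61%, 8.23% and 7.81% in Ctrl and 8.23%, 8.24% and 8.17% in IR, but 12.6%, 12.8% and 12.6% in Ab_IR and 12.9%, 12.7% and 12.6% in L_IR. The Igkv1 share was 4.44 ± 0.06 percentage points (SE) higher in Ab_IR than in IR and 4.49 ± 0.09 points higher in L_IR than in IR. Igkv10 ran the other way, at 10.2% to 11.2% in Ctrl and IR and 7.91% to 8.74% in Ab_IR and L_IR. Igkv17 set Ctrl apart from all irradiated groups, at 4.23% to 4.51% against 6.42% to 7.14%.

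The other families of the 8 largest moved less than Igkv1, Igkv10 and Igkv17. Igkv6 held 11.8% to 12.3% in Ctrl and IR, 12.8% to 13.0% in Ab_IR and 13.3% to 13.7% in L_IR. Igkv3 held 11.97% to 13.2% in Ctrl and 10.6% to 11.4% in the irradiated groups. Igkv12 held 8.34% to 9.72% and Igkv5 6.81% to 7.99% over the 12 libraries. Among smaller families, Igkv8 held 6.38% to 6.58% in Ctrl and 4.54% to 5.10% in the irradiated groups. Igkv13 was lowest in IR, at 0.447% to 0.463% against 1.21% to 1.42% in Ctrl and 0.835% to 0.974% in Ab_IR and L_IR. Igkv20 and Igkv11, which rest on Igkv20-101-2 and almost wholly on Igkv11-125, were highest in IR, at 0.542% to 0.620% and 0.463% to 0.563%. In the other groups Igkv20 did not exceed 0.0972% and Igkv11 did not exceed 0.192%. These 4 smaller families were singled out after their values had been seen.

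**Figure D2:**
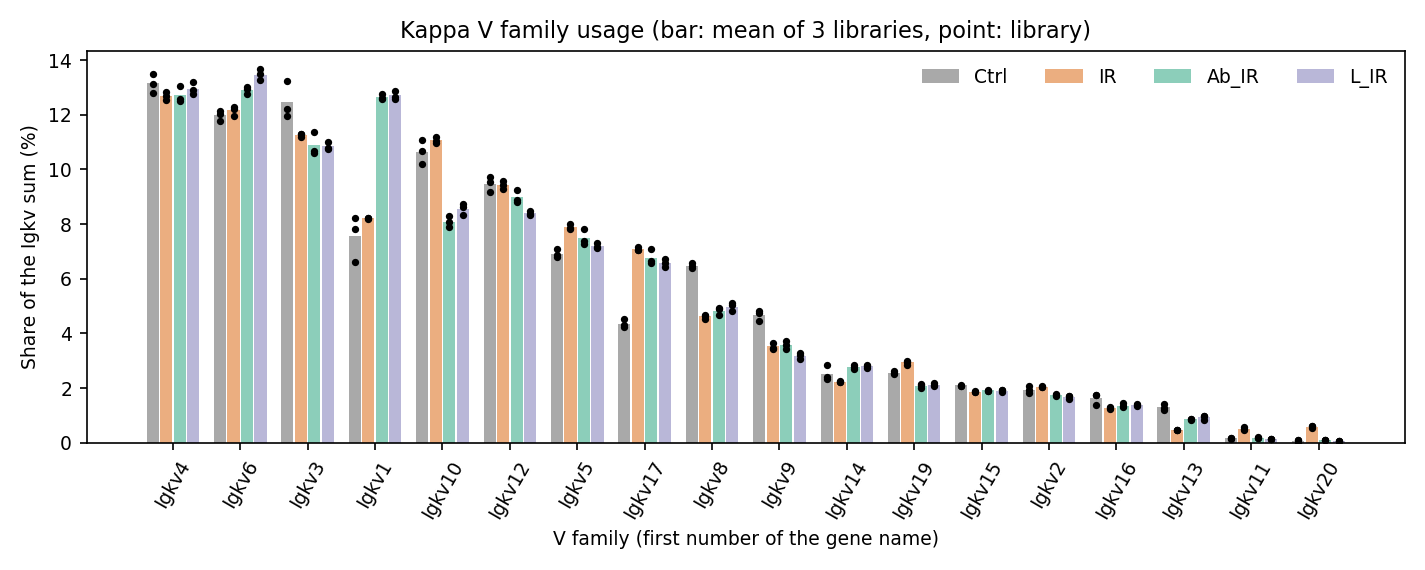
Share of the summed kappa V FPKM (vertical axis, percent) held by each V family other than Igkv7 and Igkv18, with group means as bars and libraries as points (n = 3). Igkv1 is higher and Igkv10 lower in Ab_IR and L_IR than in Ctrl and IR, Igkv17 is lowest and Igkv8 highest in Ctrl, and Igkv4 is alike in all groups.

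Comparing IR with Ctrl asked how the kappa V transcripts of the sorted cells differed at day 3 after radiation. Of 103 members that passed the filter on low values, 56 rose and 2 fell in limma's test (adjusted p under 0.05 over all genes and a change of more than 1 on the log2 scale). Over all 12072 genes tested, 3.03% rose and 4.57% fell. The median log2 fold change was 1.12 over the members and -0.05 over all genes. Without Ctrl replicate 1, which is also the comparison within the Nppa split, 52 rose and 5 fell. Igkv17-127 rose by 1.96 ± 0.09 (SE, log2 scale, adjusted p = 3.17e-05) and Igkv10-96 by 1.13 ± 0.09 (adjusted p = 0.000257). Igkv6-20 narrowly missed the fold threshold at 0.99 ± 0.06. Igkv1-117 rose by 1.12 ± 0.26, a call that was lost without Ctrl replicate 1 (0.81) or without IR replicate 2 (1.09).

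The largest rises and falls were of genes far below the leading ones. Igkv20-101-2 was listed at 0, 5.68 and 4.93 FPKM in Ctrl and at 71.7, 73.8 and 65.3 FPKM in IR. The log2 fold change was 4.38 ± 0.70 (adjusted p = 0.00361) on the log2(FPKM + 1) scale, and it was 0.88 lower (adjusted p = 1.57e-06) without Ctrl replicate 1, the library listed at 0. Igkv4-86 was at 5.64, 11.1 and 11.2 FPKM in Ctrl and 80.2, 77.9 and 80.3 FPKM in IR, a change of 3.02 ± 0.24 (adjusted p = 0.000218). Igkv4-62 was at 7.54, 15.6 and 10.7 FPKM in Ctrl and 83.6, 93.7 and 90.3 FPKM in IR, a change of 2.93 ± 0.23 (adjusted p = 0.000212). All 3 genes had no overlap between the groups, and the IR libraries lay close together. Igkv8-27 fell from 39.2, 38.5 and 41.9 FPKM to 11.7, 11.5 and 10.1 FPKM, by 1.76 ± 0.07 on the log2 scale (adjusted p = 2.7e-05). Igkv4-68 fell from 62.5, 72.2 and 72.6 FPKM to 20.7, 21.7 and 27.8 FPKM, by 1.53 ± 0.12 (adjusted p = 0.000246). While the V sum was 2.11-fold higher in IR, these genes were thus less abundant in absolute FPKM. The germline ends of these genes, with Igkv6-25 added because it rose most in L_IR against IR, are shown as above with the last cysteine codon in capitals.
Igkv20-101-2 (chr6:68475042-68475101, plus strand): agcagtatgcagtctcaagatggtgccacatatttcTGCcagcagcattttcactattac
Igkv4-62 (chr6:69399812-69399871, minus strand): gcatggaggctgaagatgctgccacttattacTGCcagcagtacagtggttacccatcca
Igkv4-86 (chr6:68910411-68910470, minus strand): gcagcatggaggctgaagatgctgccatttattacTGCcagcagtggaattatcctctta
Igkv4-68 (chr6:69304834-69304893, minus strand): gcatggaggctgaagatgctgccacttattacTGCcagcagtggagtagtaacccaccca
Igkv6-25 (chr6:70215898-70215957, plus strand): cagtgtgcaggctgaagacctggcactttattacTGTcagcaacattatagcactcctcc
Igkv8-27 (chr6:70171809-70171868, minus strand): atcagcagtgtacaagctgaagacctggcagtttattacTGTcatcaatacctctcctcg
Igkv4-62 and Igkv4-68, which moved in opposite directions, are from a single family. For Igkv4-62 the transcript with 2 exons is shown, and another transcript model of that gene ends at 69399810, past the bases printed.

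Near-identical genes of a family did not always pass the test together. Igkv17-127 and Igkv17-121 differ at 6 of 298 bases of the V exon, which are capitalised below.
Igkv17-127 (chr6:67861362-67861659, plus strand): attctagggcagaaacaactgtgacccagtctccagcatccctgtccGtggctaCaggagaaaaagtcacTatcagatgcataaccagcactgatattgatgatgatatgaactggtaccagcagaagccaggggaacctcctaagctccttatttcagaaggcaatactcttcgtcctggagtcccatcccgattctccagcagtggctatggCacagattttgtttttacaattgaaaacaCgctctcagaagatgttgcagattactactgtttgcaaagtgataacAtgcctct
Igkv17-121 (chr6:68037021-68037318, plus strand): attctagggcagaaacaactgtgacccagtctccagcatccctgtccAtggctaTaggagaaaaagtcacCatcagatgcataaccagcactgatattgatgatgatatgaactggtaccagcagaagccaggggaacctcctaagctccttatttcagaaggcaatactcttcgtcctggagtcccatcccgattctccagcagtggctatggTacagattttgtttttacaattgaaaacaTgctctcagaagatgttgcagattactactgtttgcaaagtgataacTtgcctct
Igkv17-127 rose between Ctrl and IR, as given above. Igkv17-121 was at 40.8, 34.7 and 31.7 FPKM in Ctrl and 27.9, 31.7 and 29.2 FPKM in IR, with a log2 fold change of -0.26 ± 0.11 that did not pass the test (adjusted p = 0.093). It was then at 106, 102 and 99.9 FPKM in Ab_IR and 163, 171 and 181 FPKM in L_IR. Igkv17-121 thus rose by 1.76 ± 0.05 in Ab_IR against IR (adjusted p = 3.14e-07), where Igkv17-127 was under the fold threshold at -0.54 ± 0.04. The difference between both genes was not tested. With 98.0% identity, reads that fit both genes cannot be assigned with certainty, which was not tested here.

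Ab_IR against IR compared 2 irradiated groups whose Igkc levels overlapped. Of 104 members tested, 8 rose and 15 fell, against 5.11% and 2.46% of 12067 genes, and the median log2 fold change was -0.29 over the members and 0.06 over all genes. The 3 largest rises were of Igkv4-68, at 96.8, 89.6 and 104 FPKM in Ab_IR (log2 fold change 2.01 ± 0.11, adjusted p = 4.44e-06), Igkv6-25 (1.79 ± 0.09) and Igkv17-121. Igkv6-25 was at 25.8, 21.6 and 24.8 FPKM in IR and at 76.7, 89.1 and 91.6 FPKM in Ab_IR. The 3 largest falls were of Igkv20-101-2, at 8.52, 8.33 and 9.65 FPKM in Ab_IR (-2.86 ± 0.07, adjusted p = 1.28e-07), Igkv4-62 (-2.46 ± 0.05) and Igkv4-91 (-2.18 ± 0.09). Igkv4-91 was at 74.2, 71.7 and 74.4 FPKM in IR and at 13.3, 15.4 and 17.8 FPKM in Ab_IR. Igkv4-62 was at 15.1, 15.9 and 15.2 FPKM in Ab_IR. These 3 genes, all high in IR, were thus low in Ab_IR.

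L_IR was compared with IR next. Of 104 members tested, 23 rose and 4 fell, against 4.09% and 2.13% of 12163 genes, with a median log2 fold change of 0.34 over the members and 0.07 over all genes. This comparison shares its IR libraries with the one above, so likeness between them is no separate result. Igkv6-25 was at 181, 185 and 190 FPKM in L_IR (log2 fold change 2.90 ± 0.06, adjusted p = 1.3e-07). Igkv4-68 was at 160.4, 164 and 175 FPKM in L_IR (2.79 ± 0.10) and Igkv8-27 at 66.2, 71.3 and 77.2 FPKM (2.58 ± 0.07). Igkv20-101-2 fell to 11.6, 10.4 and 9.04 FPKM (-2.66 ± 0.09, adjusted p = 6.64e-07) and Igkv4-62 to 22.6, 23.0 and 21.8 FPKM (-1.94 ± 0.05). Igkv11-125 fell from 59.1, 66.5 and 55.7 FPKM in IR to 22.1, 24.3 and 20.7 FPKM in L_IR (-1.39 ± 0.08). Its levels in Ctrl were 6.49, 11.1 and 9.01 FPKM and in Ab_IR 15.3, 18.3 and 19.1 FPKM.

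The higher Igkv1 share in Ab_IR and L_IR came largely from Igkv1-110 and Igkv1-117. Igkv1-110 was at 58.4, 102 and 93.9 FPKM in Ctrl, 247, 246 and 257 FPKM in IR, 385, 401 and 415 FPKM in Ab_IR, and 714, 679 and 697 FPKM in L_IR. Igkv1-117 was at 71.3, 145 and 128 FPKM in Ctrl, 226, 250.2 and 244 FPKM in IR, 397, 422 and 408 FPKM in Ab_IR, and 660.1, 653 and 685 FPKM in L_IR. Both rose by 1.47 on the log2 scale in L_IR against IR (SE 0.03 and 0.04). In Ab_IR against IR the changes were 0.67 ± 0.04 and 0.77 ± 0.05, under the fold threshold. As shares of the V sum, Igkv1-110 went from 2.11% ± 0.03 in IR to 4.10% ± 0.09 in Ab_IR and 4.29% ± 0.13 in L_IR, and Igkv1-117 from 2.02% ± 0.09 to 4.20% ± 0.12 and 4.10% ± 0.07. Their last 180 bases are shown with the 5 differing bases in capitals.
Igkv1-110 (chr6:68271088-68271267, plus strand): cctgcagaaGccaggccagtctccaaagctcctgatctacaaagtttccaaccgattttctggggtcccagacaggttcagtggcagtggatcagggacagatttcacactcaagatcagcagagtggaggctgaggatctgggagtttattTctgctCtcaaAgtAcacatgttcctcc
Igkv1-117 (chr6:68121648-68121827, plus strand): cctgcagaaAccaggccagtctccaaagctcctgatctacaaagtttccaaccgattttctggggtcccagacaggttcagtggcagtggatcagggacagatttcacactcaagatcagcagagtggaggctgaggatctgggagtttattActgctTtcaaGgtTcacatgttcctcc
Both genes lie on the plus strand, 2451.3 and 2600.7 kb from Igkj1, and are 96.8% identical over the V exon. Reads that fit both genes cannot be assigned with certainty, and their part in the alike values of this pair was not tested.

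Ab_IR and L_IR differed in the amount of kappa V transcript and hardly in its makeup. Of 104 members tested, 9 fell and 0 rose in Ab_IR against L_IR by limma, where 0.238% of 12194 genes fell and 0.295% rose. Regardless of fold, 98 members had an adjusted p under 0.05, each of them lower in Ab_IR, and 101 an unadjusted p under 0.05. The shares of all genes at these looser thresholds were not taken, and the shares above do not serve for them. The median log2 fold change was -0.71 over the members, with quartiles of -0.80 and -0.62, and 0.01 over all genes. Without Ab_IR replicate 1, 5 members were called, and with scaling to the sum without immunoglobulin genes 15. The largest falls were of Igkv6-25 (-1.10 ± 0.07, adjusted p = 5.46e-05), Igkv4-70 (-1.07 ± 0.11) and Igkv4-57-1 (-1.05 ± 0.06). The last 2 lost the call without Ab_IR replicate 2. Igkv4-70 was at 31.9, 26.5 and 36.6 FPKM in Ab_IR and 66.1, 71.1 and 64.4 FPKM in L_IR, and Igkv4-59 matches 97.3% of its V exon. Igkv4-57-1 was at 32.6, 29.96 and 33.8 FPKM in Ab_IR and 71.7, 66.3 and 64.2 FPKM in L_IR.

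As shares of the V sum, the genes of both groups nearly coincided. Of the 88 members with a mean of at least 10 FPKM, 82 had shares within 1.25-fold of each other in Ab_IR and L_IR and 0 differed by more than 2-fold. The extremes were Igkv6-25, with a ratio of 0.771, and Igkv20-101-2, with a ratio of 1.42. By contrast, 20 of the 88 shares differed by more than 2-fold between IR and Ctrl, 16 between Ab_IR and IR and 21 between L_IR and IR. Genes are no independent replicates, but as a description across these 88, Pearson's r of the log2 group means was 0.995 between Ab_IR and L_IR and 0.773 to 0.877 between the other pairs of groups. No test was run on these shares.

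**Figure D3:**
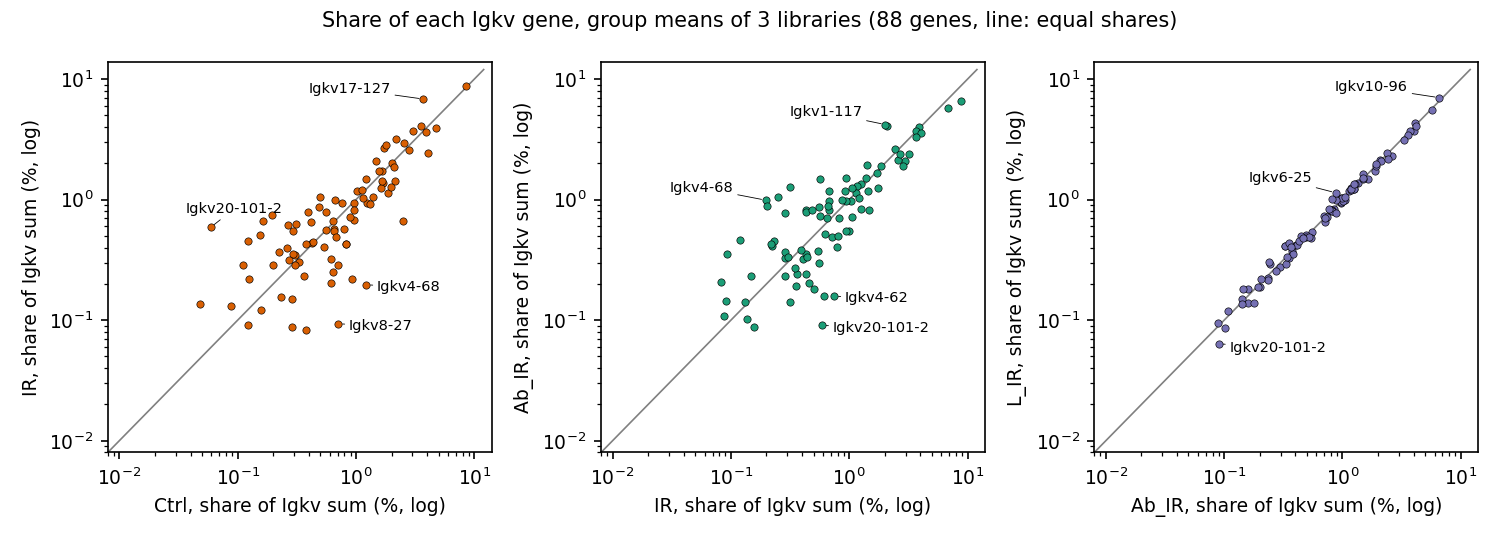
Share of the kappa V sum of each of 88 genes in 1 group against another, as group means of 3 libraries in percent on log axes, with a line of equal shares. Points scatter widely for Ctrl against IR and IR against Ab_IR, and lie along the line for Ab_IR against L_IR, where 82 of 88 genes are within 1.25-fold.

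The same was seen library by library. The usage distance between 2 libraries was taken as the part of the V sum that would have to move to another gene to make them equal, in percent. Within IR, Ab_IR and L_IR it was 2.03% to 2.89%. Between Ab_IR and L_IR libraries it was 2.82% to 3.95%, with a median of 3.59%. Within IR, Ab_IR and L_IR the medians were 2.43%, 2.68% and 2.45%, so the ranges overlapped only at the low end. Between IR and Ab_IR libraries the distance was 15.3% to 16.9%, and between IR and L_IR libraries 16.5% to 17.6%. Ctrl replicates 2 and 3 were 3.28% apart and lay 14.4% to 15.6% from the irradiated libraries. Ctrl replicate 1 was 8.48% and 8.98% from its own group and up to 20.1% from the others. Ctrl, IR and the pair of Ab_IR and L_IR thus formed 3 sets of usage profiles.

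**Figure D4:**
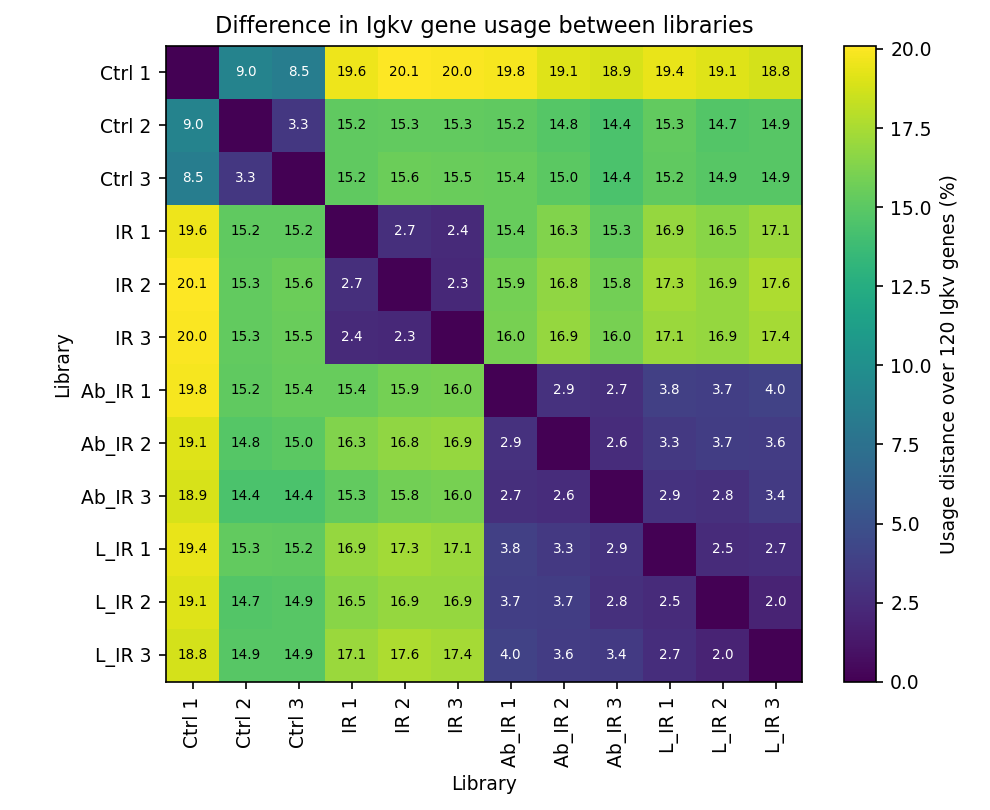
Usage distance over 120 kappa V genes between each pair of the 12 libraries, in percent, with the value in each cell and a colour scale from 0. Ab_IR and L_IR form a single block of values from 2.03% to 3.95%, IR a block of its own, and Ctrl replicate 1 lies apart from Ctrl replicates 2 and 3.

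Grouping the genes by family gave smaller distances with a different order. Between group means, family usage differed by 6.47 percentage points for IR to Ctrl (6.17 without Ctrl replicate 1), 6.54 for Ab_IR to IR and 7.63 for L_IR to IR. It differed by 1.66 points for Ab_IR to L_IR, and by 9.4 and 9.5 points for Ab_IR and L_IR to Ctrl (9.11 and 9.24 without Ctrl replicate 1). IR was thus nearer to Ctrl than Ab_IR and L_IR were by family, though not by gene. Between Ab_IR and L_IR, the shares of Igkv6 and Igkv10 were lower and those of Igkv9, Igkv11, Igkv12 and Igkv20 higher in Ab_IR without overlap. The other families overlapped. The heavy chain V genes, 142 in number, gave distances of 2.44% to 2.80% between Ab_IR and L_IR libraries and 11.5% to 12.7% between these and IR. Over the 31035 genes that are not immunoglobulin genes, Ab_IR and L_IR libraries were 7.78% to 11.9% apart, against 2.98% to 3.65% within L_IR and 3.75% to 7.77% within Ab_IR. Over these genes IR libraries lay 15.6% to 18.7% from Ab_IR and 13.1% to 13.7% from L_IR libraries.

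Against Ctrl, both Ab_IR and L_IR held more kappa V transcript. In Ab_IR 28 of 100 members tested rose and 0 fell, where 0.692% of 12134 genes rose and 0.231% fell, and the median log2 fold change was 0.71 over the members. This count depended on single libraries, as it was 13, 13 and 14 without Ab_IR replicates 1, 2 and 3 and 18 without Ctrl replicate 3, and 17 with no filter on low values. It was 28 without Ctrl replicate 1, where the group and the Nppa split coincide, and 78 members had an unadjusted p under 0.05 with limma. The share of all genes at that unadjusted threshold was not taken. In L_IR 74 of 102 members rose and 0 fell, where 2.03% of 12251 genes rose and 0.620% fell, with a median of 1.42. Without Ctrl replicate 1 the count was 76, again with the group and the Nppa split coinciding. By limma 98 members had an unadjusted p under 0.05, again with no share of all genes at that threshold. The median over all genes was 0.00 in L_IR against Ctrl. The 3 largest rises were of Igkv4-86, Igkv5-48 and Igkv4-80 in both comparisons, which share their Ctrl libraries. Igkv4-86 was at 79.6, 85.5 and 93.2 FPKM in Ab_IR and 122, 123 and 129 FPKM in L_IR, a log2 fold change against Ctrl of 3.13 ± 0.24 and 3.66 ± 0.24. Igkv5-48 was at 13.1, 9.65 and 10.5 FPKM in Ctrl, 74.2, 72.7 and 79.1 FPKM in Ab_IR and 142, 134 and 130.3 FPKM in L_IR, a change of 2.67 ± 0.11 and 3.51 ± 0.11. Igkv4-80 was at 2.72, 8.20 and 8.33 FPKM in Ctrl, 33.6, 35.3 and 38.6 FPKM in Ab_IR and 61.7, 69.6 and 66.1 FPKM in L_IR. In Ab_IR its call (2.43 ± 0.35, adjusted p = 0.0213) was lost without Ctrl replicate 3 or any Ab_IR replicate, and Igkv1-117 lost its call there in the same way.

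The position of the genes in the locus was compared last. The members lie 18.4 to 3166.3 kb from Igkj1, with 47 on the plus strand, the strand of Igkj1 and Igkc, and 73 on the minus strand. Genes on the plus strand held 35.2% to 36.0% of the V sum in Ctrl, 37.6% to 37.8% in IR, 41.9% to 42.6% in Ab_IR and 42.2% to 42.5% in L_IR. The 30 members farthest from Igkj1, at 2256.2 to 3166.3 kb, held 21.9% to 23.9% in Ctrl and 24.9% to 25.2% in IR. They held 29.2% to 29.95% in Ab_IR and 28.7% to 29.1% in L_IR. The 30 members nearest to Igkj1, at 18.4 to 648.0 kb, held 30.3% to 31.5% in Ctrl and 27.7% to 29.4% in the irradiated groups. Igkv1-110, Igkv1-117 and Igkv17-127 are plus-strand genes of the far block. The shares of Igkv1-110 and Igkv1-117 were 2.18 and 2.08 points higher in L_IR than in IR, whereas that of Igkv17-127 differed by -1.32 points (-1.11 in Ab_IR against IR), against the direction of the plus-strand and far-block shares. For comparison, the plus-strand share was 4.71 points and the far-block share 3.84 points higher in L_IR than in IR. In IR against Ctrl the far-block share was 1.99 points higher, while the share of Igkv17-127 went from 3.70% to 6.83%. No test was run on the part of single genes in these shares.

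**Figure D5:**
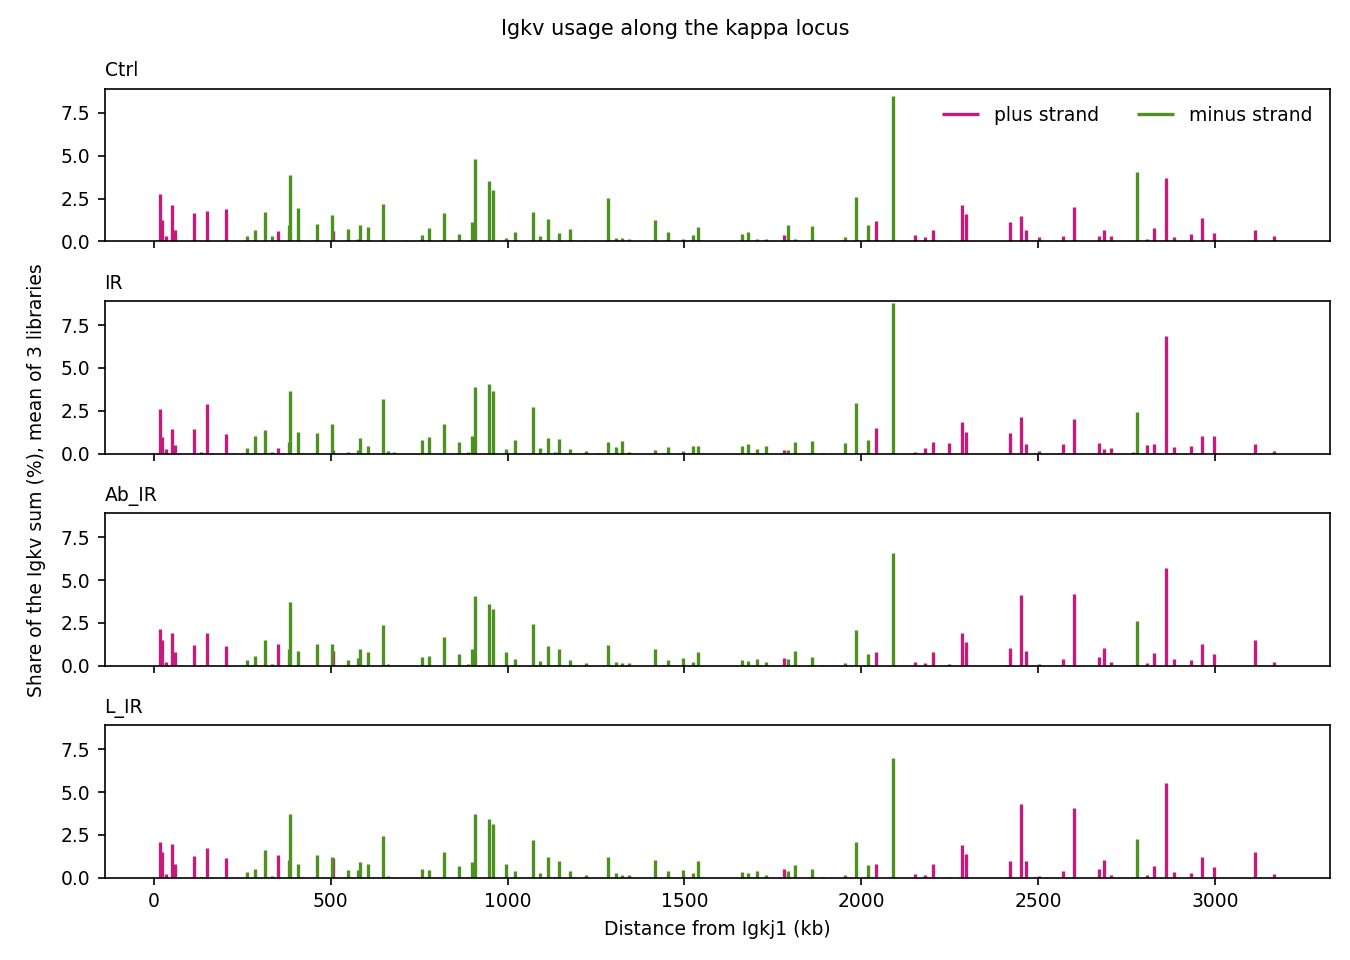
Share of the kappa V sum (vertical axis, percent, mean of 3 libraries) of each of the 120 genes against its distance from Igkj1 in kb, in 1 panel per group and coloured by strand. The far end of the locus holds more of the V sum in Ab_IR and L_IR, where Igkv1-110 and Igkv1-117 at 2451.3 and 2600.7 kb stand out at about equal height.

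The partner genes of the kappa chain were followed in lists. In L_IR against Ctrl 14 of 15 tested genes rose in a list of kappa and lambda constant and joining genes that also holds Iglv1, Iglv2 and Iglv3. Igkc, all 5 Igkj segments and the 3 lambda V genes were among them. In IR against Ctrl 6 of 15 rose, all of the lambda locus, with Iglv2 leading at 2.49 ± 0.07 (log2 fold change, adjusted p = 8.06e-06), and 5 without Ctrl replicate 1, where Iglv3 lost its call. In Ab_IR against Ctrl likewise 6 of 15 rose, but the count was 4 without Ctrl replicate 1, 5 and 3 without Ctrl replicates 2 and 3, and 2 or 3 without any 1 Ab_IR library. In Ab_IR against IR 0 rose and 2 fell, namely Iglv2 and Igkj3, the latter not without Ab_IR replicate 3. Heavy chain constant genes rose in 3 of 7 tests in IR against Ctrl (Ighm, Ighg3 and Ighe), 1 of 7 in Ab_IR (Ighe) and 6 of 7 in L_IR. Without Ctrl replicate 1, Ighg2b passed too in IR and Ighg2c in Ab_IR. Among heavy chains Ighg1 was at 1348 to 2503 FPKM and Igha at 890 to 2064 FPKM in all libraries, against 116 to 343 FPKM of Ighm and 0.19 to 1.32 FPKM of Ighd, the marker of naive B cells.

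Genes of V(D)J recombination and end joining changed little in number. Rag1 and Rag2, the recombinase itself, did not exceed 0.37 and 0.13 FPKM in any library. Dntt, which adds bases at the joints, was the only list gene that passed the test in any comparison. It was at 12.4 to 14.3 FPKM in Ctrl, 0.26 to 0.35 FPKM in IR, 12.3 to 13.0 FPKM in Ab_IR and 4.20 to 4.61 FPKM in L_IR. Dntt thus fell by 3.47 ± 0.08 in IR against Ctrl (adjusted p = 5.11e-06) and was higher in Ab_IR than in L_IR by 1.35 ± 0.05 (adjusted p = 1.16e-05). With 1 library of the higher group left out, Dntt did not pass the filter on low values in comparisons with IR. Of the transcription factors known from kappa genes, 2 of 15 tested rose (Pou2af1 and Spi1) and 2 fell (Irf8 and Bcl11a) in IR against Ctrl. Pou2af1, a coactivator at immunoglobulin promoters, rose from 7.12 to 8.74 FPKM in Ctrl to 40.9 to 43.4 FPKM in IR (2.32 ± 0.09), and was at 9.28 to 11.7 FPKM in Ab_IR and 17.5 to 18.3 FPKM in L_IR. Spi1, which encodes the myeloid and B cell factor PU.1, went from 52.6 to 68.0 FPKM in Ctrl to 119 to 127 FPKM in IR (1.03 ± 0.10), a call lost without Ctrl replicate 2. Irf8, a partner of PU.1, went from 22.4 to 28.0 FPKM to 7.34 to 7.69 FPKM (-1.60 ± 0.09). Bcl11a, a factor of early lymphoid cells, went from 6.25 to 7.85 FPKM to 2.66 to 2.87 FPKM (-1.06 ± 0.09), a call lost without Ctrl replicate 1. Irf4, which plasma cells need, was at 5.55 to 5.87 FPKM in Ctrl, 10.6 to 10.9 FPKM in IR, 6.92 to 7.95 FPKM in Ab_IR and 14.8 to 15.8 FPKM in L_IR, and rose in L_IR against Ctrl (1.27 ± 0.06).

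Markers of plasma cells moved with the kappa V sum in part. The 15 listed genes summed to 740 to 848 FPKM in Ctrl, 1205 to 1231 FPKM in IR, 1221 to 1312 FPKM in Ab_IR and 1643 to 1665 FPKM in L_IR, mostly from Jchain. Without Jchain the other 14 genes summed to 213 to 231, 498 to 503, 289 to 304 and 377 to 384 FPKM in the same order, highest in IR. Of these 15 genes 5 rose in IR, 0 in Ab_IR and 7 in L_IR against Ctrl. In IR, Derl3 lost its call without Ctrl replicate 2. In L_IR, Mzb1 lost its call without Ctrl replicate 3 or any 1 L_IR library, and Prdm1 gained a call without Ctrl replicate 2 or L_IR replicate 2. Jchain, the joining chain of secreted IgM and IgA, was at 513 to 630.0 FPKM in Ctrl, 707 to 728 FPKM in IR, 919 to 1008 FPKM in Ab_IR and 1259 to 1287 FPKM in L_IR. Xbp1, a driver of the secretory program, was highest in IR at 199 to 201 FPKM, against 69.1 to 83.6 FPKM in Ctrl and 91.1 to 108 FPKM in Ab_IR and L_IR. The surface marker Sdc1 was at 4.22 to 11.7 FPKM in all libraries and was among the 7 genes that rose in L_IR against Ctrl. The B cell list summed to 173 to 180, 161 to 167, 219 to 232 and 247 to 251 FPKM in Ctrl, IR, Ab_IR and L_IR, mostly from Cd74 and Cd37. Cd79a and Cd79b, the signalling chains of the B cell receptor, were at 11.5 to 23.3 and 7.55 to 20.1 FPKM, and Cd79b rose in Ab_IR and in L_IR against IR. Of the other genes Ms4a1 did not exceed 0.66 FPKM, Cr2 0.05 FPKM and Pax5 0.73 FPKM, and 0 of the 5 or 6 genes tested rose against Ctrl in any group. The surrogate light chain genes Igll1 and Vpreb1, which mark pre-B cells, were at most 1.56 and 1.91 FPKM, and both rose in Ab_IR against IR, though neither passed the filter on low values without any 1 Ab_IR library. In IR against Ctrl 1 of 7 genes tested of their list, Vpreb3, passed the test, a call lost without Ctrl replicate 1, where it was listed at 0, or without any 1 IR library. The part of plasma cell RNA in the kappa V values was not tested.

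Other cell types moved between the same groups. The erythroid list summed to 4029 to 4589 FPKM in Ctrl, 635 to 648 FPKM in IR, 3880 to 4067 FPKM in Ab_IR and 1999 to 2059 FPKM in L_IR. The T cell list summed to 42.2 to 47.4, 24.4 to 27.3, 46.9 to 53.2 and 69.6 to 74.3 FPKM in the same order, and the neutrophil list to 10984 to 12854, 16529 to 16800, 12076 to 12661 and 8852 to 9063 FPKM. The megakaryocyte and platelet list summed to 74.6 to 87.2, 17.6 to 20.6, 172 to 177 and 109 to 116 FPKM, and the macrophage list to 104 to 108, 72.0 to 78.3, 113 to 123 and 110 to 120 FPKM. The HSC list summed to 115 to 121, 76.3 to 83.6, 104 to 113 and 108 to 110 FPKM. In IR against Ctrl 0 T cell genes of 10 tested rose or fell. Of 13 neutrophil genes 4 rose and 1 fell, and 11 of 11 erythroid, 7 of 10 megakaryocyte, 3 of 10 macrophage and 5 of 9 HSC genes fell. Without any 1 Ctrl library 4 or 5 megakaryocyte and 4 HSC genes fell. Without Ctrl replicate 3 or IR replicate 1, 2 macrophage genes fell, and without IR replicate 1, 6 HSC genes fell. In Ab_IR against IR 1 T cell, 1 neutrophil, 11 erythroid, 9 megakaryocyte, 3 macrophage and 5 HSC genes rose and 4 neutrophil genes fell. Without any 1 Ab_IR library 6 megakaryocyte and 4 HSC genes rose. Without IR replicate 1 or Ab_IR replicate 2, 2 T cell genes rose. In L_IR against IR 8 T cell, 11 erythroid, 8 megakaryocyte, 2 macrophage and 4 HSC genes rose and 8 neutrophil genes fell. Without any 1 L_IR library 6 megakaryocyte and 6 or 7 T cell genes rose. Without IR replicate 3, 7 T cell genes rose, and without IR replicate 1 or 3, 9 megakaryocyte and 5 HSC genes rose. Ab_IR exceeded L_IR in 7 neutrophil and 4 erythroid genes, with 8 neutrophil genes without Ab_IR replicate 1 and 3 erythroid genes without Ab_IR replicate 2. The shares of all genes that rose or fell are those given with each comparison above. None of these lists followed the order of the kappa V sum over all 4 groups, and their part in it was not tested.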

How the data were processed

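RNA of sorted bone marrow cells was sequenced in 12 libraries, grouped by their titles. The authors deposited 1 table per library of normalized values, which are FPKM as judged from the values. The labels name fastp, HISAT2, StringTie and GRCm38/mm10 without versions, and the study's methods name RSEM. Members, gene lists and tests were chosen with earlier results of these data known. Each comparison was fitted on its 6 libraries with limma 3.58.1 (empirical Bayes, R 4.3.3) on log2(FPKM + 1), for genes of at least 1 FPKM in at least 3 libraries. Benjamini-Hochberg adjustment covered all genes tested, and a call needed an adjusted p under 0.05 and a log2 change over 1. The procedure was tested on simulated data. Shares are percentages of the Igkv sum and received no test. Genes were named by rule: the 10 members of highest mean, up to 3 rises and 3 falls per comparison among called members with a mean of at least 10 FPKM and groups apart, called list genes (by count, with values for up to 4), Igkc, and the 8 largest families. V exons came from GENCODE M21. Alternatives covered filter, pseudocount (0.1), scaling, summed duplicate rows, gene length, 1 fit of all libraries, a replicate block, gene subsets and leaving out each library, which for the gene lists was added after seeing the data.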

Additional observations from a re-analysis of the deposited data

How the results depend on the processing

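Among the sums, family distances and counts of called members, 191 alternative values stayed on the same side or within the spread, and 0 reversed. Scaling to the sum without immunoglobulin genes, which shifts every log2 ratio by -0.15 in Ab_IR against IR and against L_IR, gave 15 called members in place of 9 in Ab_IR against L_IR, and log2 ratios of the Igkv sum of -0.44 (Ab_IR to IR) and -0.88 (Ab_IR to L_IR). Median scaling gave -0.33 for Ab_IR to IR and 0.40 for L_IR to IR. Without Igkv10-96 these ratios were -0.25 and 0.48, and the family distance of Ab_IR to IR was 6.13. With no filter on low values 17 in place of 28 members were called in Ab_IR against Ctrl. Leaving out 1 library gave 13 to 28 there and 5 to 9 in Ab_IR against L_IR. Without genes that have a near-identical copy, the family distances were 7.15 (IR to Ctrl), 7.73 (Ab_IR to IR), 8.44 (L_IR to IR), 10.8 (Ab_IR to Ctrl) and 11.7 (L_IR to Ctrl). The cause of these shifts was not tested. Of 1288 alternative values of single genes, 1269 stayed called or not called as before, 15 lost and 4 gained a call. Replicate numbers did not pair the libraries, with correlations of same-numbered deviations of -0.27 to 0.21 over 12699 genes. With a replicate block, 58 members were called in IR, 24 in Ab_IR and 69 in L_IR against Ctrl, 23 in Ab_IR and 27 in L_IR against IR, and 9 between Ab_IR and L_IR. With 3 libraries a group and unknown depth, small changes of low members could not be resolved.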

Other observations

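The joining segments are given as percent of the summed Igkj FPKM, with no test of these shares. Igkj1 held 43.4% to 44.0% in Ctrl, 42.7% to 43.9% in IR, 41.6% to 43.5% in Ab_IR and 41.8% to 42.1% in L_IR. Igkj5 held 22.4% to 24.0% in IR, above the 18.7% to 22.3% of the 9 other libraries. Igkj4 held 12.6% to 14.1% in Ctrl, 13.1% to 13.9% in IR, 10.4% to 13.98% in Ab_IR and 12.9% to 13.5% in L_IR. Igkj2 held 19.58% to 20% in IR, 22.6% to 24.0% in Ab_IR and 22.9% to 23.0% in L_IR, and 19.6% to 22.2% in Ctrl. Igkj3, known as a nonfunctional segment in the mouse, held 0.173% to 0.220% in Ctrl, 0.193% to 0.243% in IR, 0.0596% to 0.112% in Ab_IR and 0.142% to 0.184% in L_IR. By limma Igkj3 was lower in Ab_IR than in IR and in L_IR, by log2 fold changes of -1.21 ± 0.23 and -1.37 ± 0.23, the first not called without Ab_IR replicate 3. These genes are very short, so values per length are uncertain.

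The lambda light chain was rarer throughout. The Igkv sum was 24.0 to 30.1 times the Iglv sum in Ctrl, 15.4 to 16.0 times in IR, 21.6 to 22.5 times in Ab_IR and 23.9 to 24.3 times in L_IR. Lambda V transcript thus took its largest part in IR. Divided by Jchain, the Igkv sum was 7.99 to 11.4 in Ctrl, 16.4 to 16.6 in IR, 9.52 to 10.6 in Ab_IR and 12.6 to 12.8 in L_IR, with no overlap between IR and the other groups.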
